A study of Homo sapiens with 10 samples.

Results

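The genes described here are 42 genes of DNA repair and of the checkpoints that watch over it, out of 26346 genes with values. They were chosen by name, as a list of known repair and checkpoint genes, with earlier results of these data known. The gene lists set beside them below were chosen with the same knowledge. All 42 were found by Ensembl ID, with 519 transcripts among them. They comprise 12 genes of homologous recombination, 10 of the Fanconi anaemia pathway, 5 of end resection and associated helicases, 2 of mismatch repair, 5 of end joining, 3 of single-strand break repair and 5 of checkpoint signalling. Polyadenylated RNA was sequenced from EndoC-βH1, a clonal human cell line that makes insulin, in 5 libraries from cells given the SRp55 siRNA labelled siSR#2 and 5 libraries from cells given a control siRNA. SRp55, the product of SRSF6, is a splicing factor of the SR family. The SRp55 group rests on a single siRNA and all cells on a single line, and the labels call every library "exposed" without saying to what. The labels do not say whether libraries of a group came from separate cultures, so the p-values measure the spread between these libraries.

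Cells repair a double-strand break either by copying an intact sister chromatid, which is homologous recombination, or by joining the ends directly. Recombination needs resected ends, on which BRCA1, BRCA2 and their partners prepare the search for the matching strand, and it works in S and G2 phase. The Fanconi anaemia pathway removes crosslinks between DNA strands: a core complex with the ubiquitin ligase FANCL marks FANCD2 and FANCI. The kinases ATM and ATR sense damage and signal through CHEK2 and CHEK1 to hold the cell cycle. Many of these genes are transcribed mostly in dividing cells.

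Expression levels are given as RPKM, reads scaled to transcript length and library size, summed over a gene's transcripts. They were tested with limma on log2(RPKM + 0.5). A gene changed where the Benjamini-Hochberg adjusted p over all 13630 tested genes was under 0.05. Log2 fold changes are SRp55 siRNA over control siRNA and relative to the median tested gene, which itself moved by 0.11 as deposited. The p-values test the change as deposited, with that shift included, so on RPKM they favour higher over lower calls. Because a short transcript weighs heavily in an RPKM sum, the estimated reads of each gene, scaled to the assigned reads of the library, were tested beside them and are given as RPM. All 42 genes passed the filter of a mean of at least 0.5 RPKM.

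Assigned reads came to 128 M ± 36.1 in SRp55 siRNA libraries and 115 M ± 36.5 in control libraries (SD, n = 5 each), with a lowest value of 61.9 M. SRSF6 lay at 20.96 to 31.1 RPKM in SRp55 siRNA libraries and at 92.4 to 100.0 RPKM in control libraries, which matches the labels. All 14 beta cell markers were present, with INS between 4237 and 12706 RPKM over the 10 libraries. Among 8 markers of other islet cells PPY was listed at 0 and GCG reached at most 0.281 RPKM, while SST lay at 41.6 to 240.3, IRX2 at 9.77 to 23.4 and TTR at 1119 to 2761 RPKM. Among 8 acinar and duct markers PRSS1 was listed at 0, while CPA1 lay at 15.7 to 39.0, KRT19 at 18.7 to 58.4 and MUC1 at 0.388 to 36.0 RPKM. Among 7 matched mesenchymal, endothelial and immune markers VIM was listed at 0 and PTPRC reached at most 0.0710 RPKM, while CD68 lay at 24.9 to 49.4 and COL1A1 at 0.640 to 6.23 RPKM. Control library 4 stood apart from its group in several of the results that follow. The 42 genes summed to 1745 RPKM in it, against 1154 to 1370 RPKM in the other control libraries and 1409 to 1806 RPKM in SRp55 siRNA libraries. As these are bulk samples, fewer expressing cells and less RNA per cell cannot be told apart.

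After SRp55 siRNA the genes that rose were genes of homologous recombination, crosslink repair and end resection, and CHEK1 on reads. No gene of end joining, single-strand break repair or mismatch repair passed on RPKM or on reads without the replicate block. With the block XRCC5 rose on RPKM and on reads (adjusted p = 0.044 and 0.035) and XRCC6 fell on reads (adjusted p = 0.0093), both genes of end joining. On RPKM sums 4 of the 42 genes rose (9.52%, against 3.76% of all tested genes), none fell (against 1.25%) and 38 did not pass (limma). At an unadjusted p under 0.05, 16 were higher and 1 was lower, against 21.9% of all tested genes in either direction. The 4 were RAD51C and XRCC2, both of homologous recombination, FANCM, a translocase that anchors the Fanconi core complex, and EXO1, an exonuclease that lengthens resected ends. On estimated reads 17 of the 42 rose (40.5%, against 7.3% of all tested genes) and none fell (against 9.87%). At an unadjusted p under 0.05 on reads, limma put 20 higher and 3 lower. The share of all tested genes at that limit was not counted, and 17.2% of them passed on reads after adjustment, in either direction. The counts of 20 and 3 thus have no background here. The 17 were 8 of 12 recombination genes, 5 of 10 Fanconi genes, 3 of 5 resection and helicase genes and CHEK1.

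The median log2 fold change of the 42 genes was 0.22 on RPKM and 0.24 on reads, where the median of all tested genes is 0 by construction. An unadjusted p under 0.05 on RPKM, in either direction, was reached by 40.5% of the 42 genes and by 21.9% of all tested genes. Over all tested genes 513 rose and 171 fell on RPKM, against 412 and 507 with median-of-ratios scaling and 995 and 1345 on reads. The labels give replicate numbers but state no pairing. The numbers were taken as pairs because same-numbered libraries deviated together in these data, and the main tests leave the pairs out. With the replicate as a block 10 of the 42 genes rose (against 9.39% of all tested genes) and none fell (against 3.7%). With median-of-ratios scaling, under which the median gene moved by 0.01, BRCA1, RAD51C, FANCL and FANCM rose, 4 of the 42 (against 3.02%), and XRCC2 and EXO1 did not pass. Over protein-coding transcripts alone EXO1 and CHEK1 rose, 2 of the 42 (against 3.26%). Leaving out control library 4 gave 11 that rose, and leaving out control library 2 or 5, or SRp55 siRNA library 3 or 4, gave 2.

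**Figure D1:**
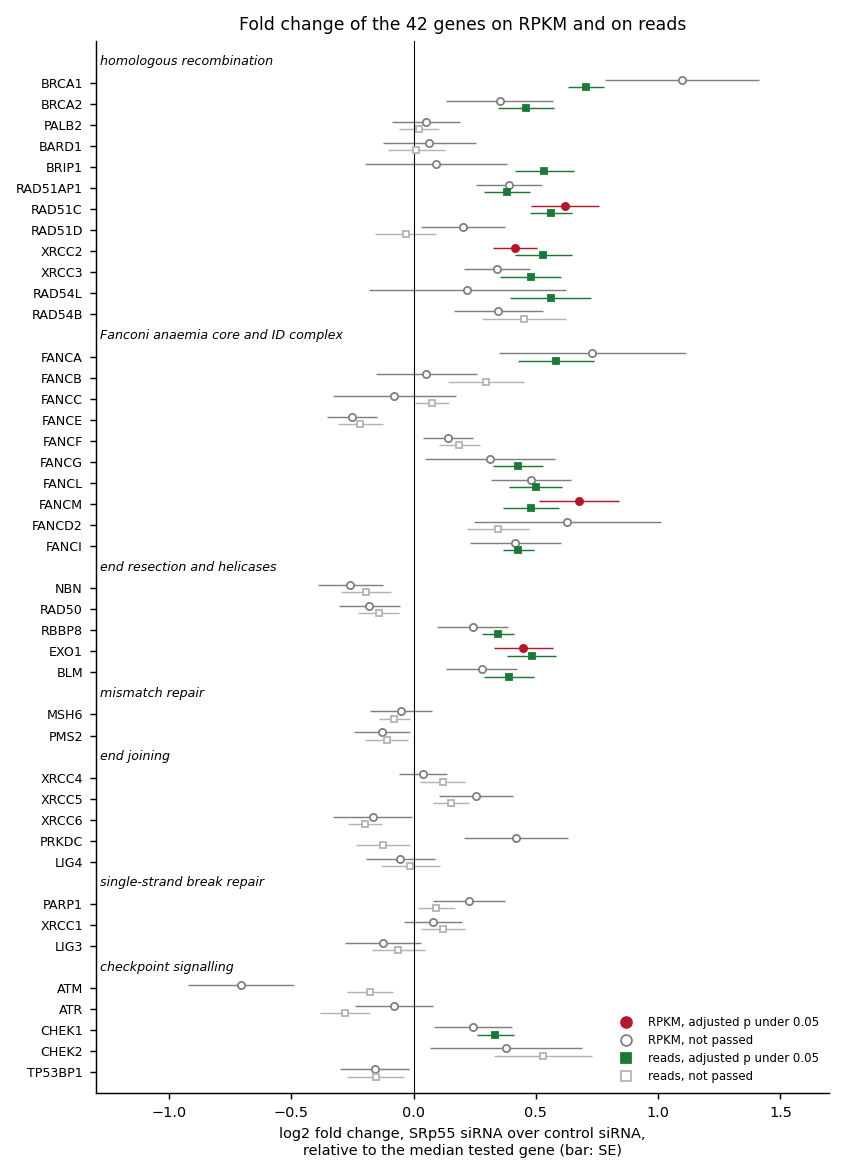
Log2 fold change (x axis, SRp55 siRNA over control siRNA, relative to the median tested gene, bars are SE) of the 42 genes grouped by role, as circles on RPKM sums and squares on estimated reads; filled symbols have an adjusted p under 0.05. Filled symbols lie to the right of 0 in the recombination, Fanconi and resection groups and at CHEK1, and the reads estimates of BRCA1 (0.70) and ATM (-0.18) lie nearer 0 than their RPKM estimates (1.10 and -0.70).

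Among the recombination genes all 12 had a positive log2 fold change on RPKM, with a median of 0.34, and 2 passed the test. RAD51C (ENSG00000108384.10, GRCh37 chromosome 17, 56769934 to 56811703) had 54.0, 38.1, 44.8, 47.0 and 36.1 RPKM in SRp55 siRNA libraries 1 to 5 and 25.4, 23.4, 24.2, 33.2 and 25.4 RPKM in control libraries 1 to 5. Every SRp55 siRNA library lay above every control library, the nearest control being library 4. RAD51C rose by a log2 fold change of 0.62 (SE 0.14, adjusted p = 0.017), and by 0.56 on reads (adjusted p = 0.0013). Its adjusted p on RPKM was 0.051 without control library 2 and 0.097 over protein-coding transcripts alone.

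XRCC2 (ENSG00000196584.2, chromosome 7, 152341864 to 152373250) had 5.99, 5.49, 6.34, 5.93 and 6.18 RPKM in SRp55 siRNA libraries and 3.63, 4.07, 4.11, 3.92 and 4.36 RPKM in control libraries. The groups did not overlap, and the libraries within each were close together. XRCC2 rose by 0.41 (SE 0.09, adjusted p = 0.011) on RPKM and by 0.53 on reads (adjusted p = 0.0094). The larger difference in RPKM was in XRCC2-202, a transcript with no defined coding sequence. It was at 4.97 ± 0.317 RPKM in SRp55 siRNA and 3.09 ± 0.426 RPKM in control libraries (SD, n = 5). The coding transcript XRCC2-201 was at 1.02 ± 0.246 and 0.923 ± 0.213 RPKM in SRp55 siRNA and control libraries. A difference between the 2 transcripts did not pass in the usage test described below (limma's diffSplice, adjusted p = 0.62). With protein-coding transcripts alone the adjusted p of XRCC2 was 0.78, and with median-of-ratios scaling it was 0.066.

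BRCA1, a ubiquitin ligase that acts with BARD1 early in recombination, had the largest log2 fold change of the 42 on RPKM and on reads, and passed on reads but not on RPKM. BRCA1 (ENSG00000012048.15, chromosome 17, 41196312 to 41277500) had 55.1, 38.1, 55.4, 55.9 and 31.5 RPKM in SRp55 siRNA libraries and 12.9, 24.7, 29.2, 30.5 and 10.1 RPKM in control libraries. The groups did not overlap, but control libraries 1 and 5 lay well under the other controls. The log2 fold change was 1.10 (SE 0.31) with an adjusted p of 0.052, and 0.026 with the replicate block. It was 0.042 with median-of-ratios scaling, 0.031 without control library 4 and 0.045 without SRp55 siRNA library 5.

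On reads BRCA1 was far less scattered. It took 84.1, 93.1, 93.2, 92.8 and 88.9 RPM in SRp55 siRNA libraries and 48.5, 57.9, 60.6, 55.1 and 57.7 in control libraries. BRCA1 rose by 0.70 on this scale (SE 0.07, adjusted p = 0.00012). BRCA1-223, a transcript of 781 bases singled out after its values were seen, held 57.1% ± 12.3 of BRCA1's RPKM in SRp55 siRNA and 41.6% ± 22.3 in control libraries (SD, n = 5). BRCA1-223 had 34.4, 21.01, 38.1, 34.7 and 11.6 RPKM in SRp55 siRNA libraries and 5.95, 15.5, 14.3, 14.2 and 0.367 RPKM in control libraries. BRCA1-203, of 7094 bases, was at 3.11 ± 0.537 RPKM in SRp55 siRNA and 2.67 ± 1.30 RPKM in control libraries (SD, n = 5). Over transcripts of at least 1000 bases the log2 fold change of BRCA1 was 0.61 (adjusted p = 0.018).

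RAD51AP1 (ENSG00000111247.10, chromosome 12, 4647950 to 4669214), which helps pair the broken strand with its template, had 31.9, 28.1, 30.3, 31.3 and 23.7 RPKM in SRp55 siRNA libraries and 16.4, 21.2, 20.8, 25.9 and 18.5 RPKM in control libraries. Only SRp55 siRNA library 5 and control library 4 overlapped. The log2 fold change was 0.39 (SE 0.14, adjusted p = 0.060), and the adjusted p was 0.039 with the replicate block, 0.025 without control library 4 and 0.037 without SRp55 siRNA library 5, and as high as 0.13 with another library left out. Over protein-coding transcripts alone the log2 fold change of RAD51AP1 was 0.12 (adjusted p = 0.45). On reads RAD51AP1 rose by 0.38 (adjusted p = 0.019).

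BRCA2, which acts on resected ends in recombination, had 3.43, 4.01, 6.60, 3.89 and 2.72 RPKM in SRp55 siRNA libraries and 4.20, 2.80, 2.73, 2.39 and 2.00 RPKM in control libraries. The groups overlapped (log2 fold change 0.35, adjusted p = 0.25). On reads BRCA2 rose by 0.46 (adjusted p = 0.020), with 41.8 ± 6.04 RPM in SRp55 siRNA and 30.6 ± 4.14 in control libraries (SD, n = 5). Nearly all BRCA2 reads were assigned to either BRCA2-201 or BRCA2-206, and which of them took the reads changed from library to library in both groups.

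Of the 7 other recombination genes, the helicase BRIP1, the recombination gene XRCC3 and the translocase RAD54L rose on reads, by 0.53, 0.48 and 0.56. None of these 3 passed on RPKM, where XRCC3 reached an adjusted p of 0.080 and, without control library 4, of 0.040. The translocase RAD54B had a log2 fold change of 0.35 on RPKM and 0.45 on reads (adjusted p = 0.18 and 0.10). With reads and the replicate block together its adjusted p was 0.019. PALB2, which bridges BRCA1 and BRCA2, BARD1, the partner of BRCA1, and RAD51D had values on reads between -0.03 and 0.02. Beside BRCA1, at 0.70 on reads, its partner BARD1 thus stood at 0.01, and beside RAD51C, at 0.56, RAD51D stood at -0.03; neither difference was tested.

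**Figure D2:**
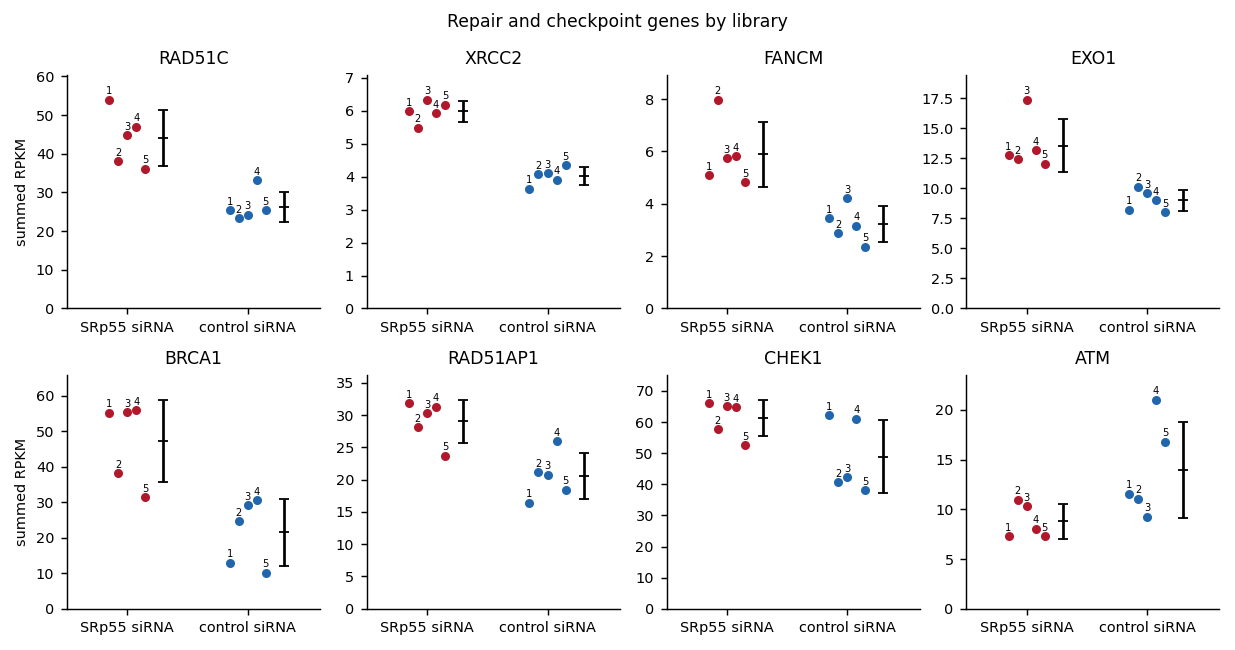
Summed RPKM (y axis) of 8 repair and checkpoint genes in SRp55 siRNA libraries (red, left) and control siRNA libraries (blue, right); points are libraries numbered by replicate and bars show mean and SD (n = 5). RAD51C, XRCC2, FANCM, EXO1 and BRCA1 do not overlap between groups, and control libraries 4 and 5 are the highest for ATM at 20.99 and 16.8 RPKM.

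Among the 10 Fanconi genes FANCM alone passed on RPKM. FANCM (ENSG00000187790.6, chromosome 14, 45605143 to 45670093) had 5.09, 7.98, 5.74, 5.81 and 4.83 RPKM in SRp55 siRNA libraries and 3.45, 2.88, 4.22, 3.16 and 2.36 RPKM in control libraries. The groups did not overlap. FANCM rose by 0.68 (SE 0.16, adjusted p = 0.024) on RPKM and by 0.48 on reads (adjusted p = 0.015). Its adjusted p on RPKM was 0.065 without control library 2, 0.058 without control library 5, 0.053 without SRp55 siRNA library 3 and 0.055 without SRp55 siRNA library 4. It was 0.16 with protein-coding transcripts alone and 0.12 over transcripts of at least 1000 bases.

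On reads FANCA and FANCG of the core complex, the ligase FANCL and its substrate FANCI rose as well, by 0.58, 0.43, 0.50 and 0.43. FANCI, the highest of the 10 in RPKM, was at 218 ± 11.3 RPM in SRp55 siRNA and 164 ± 8.82 in control libraries (SD, n = 5, adjusted p = 0.0012). FANCL and FANCI also passed on RPKM with the replicate block (adjusted p = 0.042 and 0.033). Without control library 4, FANCA, FANCL and FANCI passed on RPKM (adjusted p = 0.024, 0.024 and 0.032), and without SRp55 siRNA library 5 FANCL did (adjusted p = 0.028).

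FANCD2, the other substrate of FANCL, had 10.4, 28.4, 21.2, 7.94 and 9.81 RPKM in SRp55 siRNA libraries and 5.27, 5.73, 10.4, 15.8 and 6.70 RPKM in control libraries. The groups overlapped widely, and it passed neither on RPKM (log2 fold change 0.63, adjusted p = 0.29) nor on reads (0.34, adjusted p = 0.094). With reads and the replicate block together, an alternative chosen after seeing the data, FANCD2 rose (limma, adjusted p = 0.0018). FANCB, FANCC, FANCE and FANCF of the core complex passed on neither scale without the replicate block. Their log2 fold changes on RPKM were between -0.25 for FANCE and 0.14 for FANCF. On reads with the block FANCB rose (adjusted p = 0.022) and FANCE fell (adjusted p = 0.018), while FANCC and FANCF did not pass. FANCE was lower in SRp55 siRNA than in control libraries in all 5 pairs, and FANCF was higher in all 5.

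Among the 5 genes of end resection and helicases EXO1 rose. EXO1 (ENSG00000174371.12, chromosome 1, 242011269 to 242058450) had 12.7, 12.4, 17.4, 13.2 and 12.04 RPKM in SRp55 siRNA libraries and 8.23, 10.1, 9.61, 8.99 and 8.03 RPKM in control libraries. The groups did not overlap, and SRp55 siRNA library 3 was well above the rest. The log2 fold change was 0.45 (SE 0.12, adjusted p = 0.028) on RPKM and 0.48 on reads (adjusted p = 0.0075). The call on RPKM was close to its threshold: the adjusted p was 0.072 with median-of-ratios scaling. It lay between 0.052 and 0.073 when any of control libraries 1, 3 and 5 or SRp55 siRNA libraries 2, 3 and 4 was left out.

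RBBP8, which starts resection, and the helicase BLM rose on reads, by 0.35 (adjusted p = 0.0047) and 0.39 (adjusted p = 0.024). BLM also passed on RPKM with the replicate block (adjusted p = 0.025). RAD50 and NBN, both of the complex that holds broken ends, had log2 fold changes of -0.18 and -0.26 on RPKM and -0.14 and -0.19 on reads, and passed on neither. MRE11, the nuclease of that complex, is not among the 42 genes and was singled out after its values were seen. It rose on RPKM, by 0.42 (adjusted p = 0.044), and its value on reads was 0.30 (adjusted p = 0.089).

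MSH6, which recognises mismatches, was at 79.7 ± 9.35 RPKM in SRp55 siRNA and 76.7 ± 10.02 RPKM in control libraries (SD, n = 5), and PMS2, a nuclease of mismatch repair, at 3.20 ± 0.584 and 3.22 ± 0.0639 RPKM in SRp55 siRNA and control libraries. The most abundant of the 42 genes per length were XRCC5 and XRCC6, the subunits of the Ku ring that caps broken ends, and PARP1. XRCC5 was at 293 ± 41.1 RPKM in SRp55 siRNA and 228 ± 38.1 RPKM in control libraries (log2 fold change 0.26, adjusted p = 0.19, and 0.044 with the replicate block). XRCC6 was at 242 ± 42.8 and 252 ± 40.9 RPKM in SRp55 siRNA and control libraries. On reads XRCC6 was the only one of the 42 with every SRp55 siRNA library below every control library (2.38%, against 8.21% of all tested genes; log2 fold change -0.20, adjusted p = 0.057).

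PRKDC, the catalytic subunit that Ku recruits, had 59.1, 72.0, 59.0, 53.1 and 45.1 RPKM in SRp55 siRNA libraries and 28.1, 31.8, 46.0, 63.3 and 36.6 RPKM in control libraries. It did not pass (log2 fold change 0.42, adjusted p = 0.18), though it did without control library 4 (adjusted p = 0.037). On reads its value turned to -0.13 (adjusted p = 0.42), with 401 ± 71.7 RPM in SRp55 siRNA and 437 ± 35.5 in control libraries (SD, n = 5). Transcripts under 1000 bases held 50.97% ± 1.85 of PRKDC's RPKM in SRp55 siRNA and 26.7% ± 18.6 in control libraries (SD, n = 5). The groups overlapped, at 48.0 to 52.9% in SRp55 siRNA and 2.37 to 52.5% in control libraries. Of PRKDC's reads these transcripts held 5.83% and 2.54%. XRCC4 and LIG4, which seal the ends, had log2 fold changes of 0.04 and -0.05 on RPKM.

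PARP1, which detects single-strand breaks, had 280.4, 227, 228, 243 and 219 RPKM in SRp55 siRNA libraries and 208, 158, 174, 254 and 166 RPKM in control libraries. Its log2 fold change was 0.23 on RPKM (adjusted p = 0.21) and 0.09 on reads (adjusted p = 0.51), and control library 4 was within the range of SRp55 siRNA libraries. The scaffold XRCC1 and the ligase LIG3 had 0.08 and -0.12 on RPKM.

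Of the 5 checkpoint genes CHEK1 rose, on reads. CHEK1, the kinase downstream of ATR, had 66.1, 57.8, 65.1, 64.7 and 52.6 RPKM in SRp55 siRNA libraries and 62.2, 40.7, 42.2, 61.1 and 38.1 RPKM in control libraries. Control libraries 1 and 4 overlapped the SRp55 siRNA libraries (log2 fold change 0.24, adjusted p = 0.23). On reads the groups did not overlap, at 97.0, 98.0, 104.9, 110.9 and 100.6 RPM in SRp55 siRNA and 91.0, 87.0, 73.5, 83.5 and 74.8 in control libraries. CHEK1 rose by 0.33 on that scale (adjusted p = 0.014), by 0.48 over protein-coding transcripts (RPKM, adjusted p = 0.020) and by 0.51 over transcripts of at least 1000 bases (RPKM, adjusted p = 0.0036).

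CHEK2, the kinase downstream of ATM, had 7.87, 23.3, 22.7, 24.4 and 16.9 RPKM in SRp55 siRNA libraries and 11.5, 10.6, 10.7, 22.1 and 10.5 RPKM in control libraries. It passed on neither scale (log2 fold change 0.38 on RPKM and 0.53 on reads, adjusted p = 0.40 and 0.099), with SRp55 siRNA library 1 among the low values and control library 4 among the high. ATM had 7.30, 10.9, 10.3, 8.04 and 7.28 RPKM in SRp55 siRNA libraries and 11.6, 11.1, 9.26, 20.99 and 16.8 RPKM in control libraries. Its log2 fold change of -0.70 on RPKM, the lowest of the 42, did not pass (adjusted p = 0.14), and on reads it was -0.18 (adjusted p = 0.18). The long transcript ATM-203, singled out after its values were seen, was at 7.01 ± 0.916 RPKM in SRp55 siRNA and 6.49 ± 1.87 RPKM in control libraries (SD, n = 5). It held 16.5% of ATM's RPKM in control library 4 and 35.2% in control library 5.

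ATR had 5.86, 6.64, 4.45, 7.69 and 5.27 RPKM in SRp55 siRNA libraries and 5.78, 4.96, 5.80, 7.71 and 4.97 RPKM in control libraries, with ranges that nearly coincide. On reads ATR was lower in SRp55 siRNA than in control libraries in all 5 pairs (log2 fold change -0.28, adjusted p = 0.067). TP53BP1, which protects ends from resection, had -0.16 on both scales and passed on neither. With reads and the replicate block together, 22 of the 42 genes rose (against 15.8% of all tested genes) and 6 fell (against 20.5%), the 6 being FANCE, RAD50, XRCC6, ATM, ATR and TP53BP1. On those terms, chosen after seeing the data, ATM and ATR fell while CHEK1 and CHEK2 rose. Their adjusted p was 0.049, 0.015, 0.011 and 0.027 for ATM, ATR, CHEK1 and CHEK2. With the replicate block on RPKM none of these passed (limma, adjusted p = 0.16, 0.89, 0.081 and 0.24 in the same order).

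Counts of non-overlapping groups ran the same way as the tests. On RPKM 6 of the 42 genes (14.3%, against 5.61% of all tested genes) had every SRp55 siRNA library above every control library, namely BRCA1, EXO1, FANCF, FANCM, RAD51C and XRCC2. On reads 13 had (31%, against 5.6%). Of the 42 genes 16 (38.1%, against 22.8% of all tested genes) were higher in SRp55 siRNA in all 5 pairs on RPKM and 23 (54.8%, against 19.9%) on reads.

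RPKM and reads weigh short transcripts differently. Transcripts under 1000 bases held 46.8% ± 4.94 of the 42 genes' RPKM in SRp55 siRNA and 41.2% ± 7.51 in control libraries, but 12.9% ± 1.76 and 10.3% ± 3.16 of their reads (SD, n = 5). In 10 of the 42 genes such transcripts held over 50% of control RPKM, and in 2 over 50% of control reads. Over transcripts of at least 1000 bases 11 of the 42 genes rose on RPKM (against 5.65% of all genes tested this way) and none fell (against 4.16%).

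Further genes of repair and checkpoint pathways rose as well, from a list of 116 that also holds cell cycle regulators such as CDC25A, CDC25B, CDC25C and WEE1. Of these 116 further genes 8 rose (6.9%, against 3.76% of all tested genes) and none fell (against 1.25%) on RPKM (limma). At an unadjusted p under 0.05 on RPKM, 40 were higher and 0 lower, against 21.9% of all tested genes in either direction. On reads 20 rose (17.2%, against 7.3%) and 4 fell (3.45%, against 9.87%). With the replicate block 18 rose on RPKM (15.5%, against 9.39%). Among the 8 were CDC25A, a phosphatase that drives S phase entry, CLSPN, which links ATR to CHEK1, PARP2, a relative of PARP1, the helicase RECQL4 and the resection nuclease DNA2. CDC25A was at 19.6 ± 1.78 RPKM in SRp55 siRNA and 11.7 ± 0.718 RPKM in control libraries (log2 fold change 0.61, adjusted p = 0.0034).

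Genes of proliferation rose as well. Of 43 such genes 14 rose (32.6%, against 3.76% of all tested genes) and none fell (against 1.25%) on RPKM (limma). At an unadjusted p under 0.05 on RPKM, 33 were higher and 0 lower, against 21.9% of all tested genes in either direction. On reads 21 rose (48.8%, against 7.3%) and none fell (against 9.87%), and with the replicate block 30 rose on RPKM (69.8%, against 9.39%). All 43 were detected and none was at 0. Their summed level was 2687 to 3409 RPKM in SRp55 siRNA and 1973 to 2693 RPKM in control libraries, higher in SRp55 siRNA in all 5 pairs, and control library 4 was the highest control. By adjusted p the first were MYBL2, an S phase transcription factor, CDC6, which licenses replication origins, KIF23 and CENPE, motor proteins of mitosis, GINS2, of the replicative helicase, and E2F1, a transcription factor of S phase genes. E2F1 was at 79.5 ± 14.99 RPKM in SRp55 siRNA and 47.9 ± 7.60 RPKM in control libraries (log2 fold change 0.61, adjusted p = 0.026). The part of proliferation in the change of the repair genes was not tested. Leaving out control library 2 left 2 of the 116 and 3 of the 43 genes, and leaving out control library 4 gave 15 and 23.

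**Figure D3:**
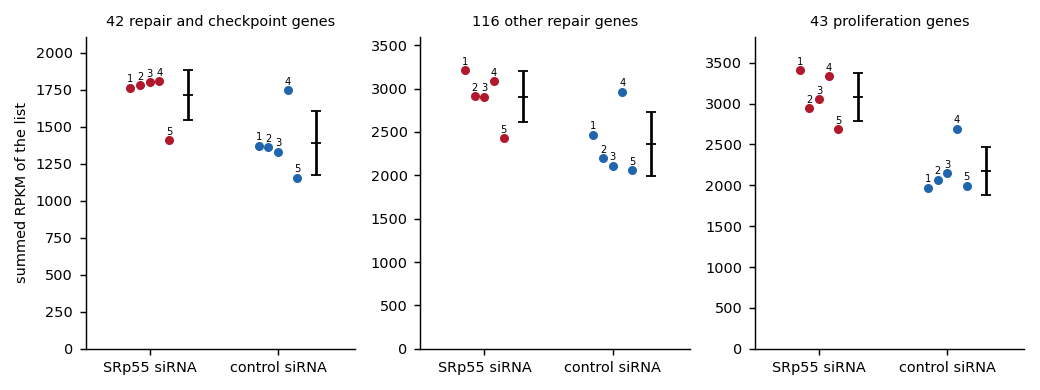
Summed RPKM (y axis) of the 42 repair and checkpoint genes, 116 other repair genes and 43 proliferation genes in SRp55 siRNA (red, left) and control siRNA libraries (blue, right); points are libraries numbered by replicate, bars show mean and SD (n = 5). SRp55 siRNA is above control in each of the 5 same-numbered pairs in all 3 lists, and control library 4 is the highest control in each. This is not particular to these lists. The summed 14 beta cell markers, not drawn, averaged 22738 RPKM in SRp55 siRNA and 17801 RPKM in control libraries. They were higher in 4 of 5 pairs, and control library 4 was again the highest control. The 42-gene sum is weighted to XRCC5, XRCC6 and PARP1, its most abundant genes, which did not pass without the replicate block.

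Promoter sequences from RefSeq (GRCh38.p14, 250 bases before to 50 after the start) were held for 37 of the 42 genes. They were searched on both strands for TTTGGCGC and TTTCCCGC, written forms of the E2F site, and for TTTGAA, the core of the CHR element of cell cycle promoters. TTTCCCGC was found in 4 of the 37 (FANCC, FANCD2, MSH6 and XRCC2), against 1.98% of 27305 gene promoters. TTTGGCGC was found in XRCC6 alone, against 0.795%. TTTGAA was also found in 4 of the 37 (ATM, BRIP1, FANCC and XRCC1), a smaller share than the 18.2% of all gene promoters. No difference from these shares was tested. The TTTCCCGC windows are shown because XRCC2 is among the genes that rose, with the word, or its reverse complement, in capitals:
XRCC2, chr7:152676102-152676131, minus strand: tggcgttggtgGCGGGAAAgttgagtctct
FANCD2, chr3:10026424-10026453, plus strand: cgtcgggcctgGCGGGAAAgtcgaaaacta
FANCC, chr9:95317737-95317766, minus strand: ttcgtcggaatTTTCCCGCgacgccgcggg
MSH6, chr2:47783137-47783166, plus strand: ctccccccagaTTTCCCGCcagcaggagcc
Only XRCC2 of these 4 rose on RPKM or on reads without the replicate block. With the block FANCD2 rose on reads (limma, adjusted p = 0.0018). The other genes that rose do not hold the word in this window or had no promoter here.

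Transcript usage is the share of a gene's RPKM that falls to a given transcript. It was tested for 40 of the 42 genes with limma's diffSplice, as FANCE and FANCF have a single transcript. A call needed both an adjusted p under 0.05 and a transcript that shifted by 10 or more points. RAD51AP1 alone was called, with an adjusted p of 0.00059 (34 of 9919 tested genes, 0.343%, were called). On reads none of the 40 was called (against 0.484%), the largest shift of a tested RAD51AP1 transcript being -7.63 points. None was called with transcripts of at least 1 RPKM and 10% usage (against 0.249%), a limit that leaves out the tested transcript that shifted most. Of the 40 genes 18 had a shift of at least 10 points and 3 an unadjusted p under 0.05, namely RAD51AP1, RBBP8 and EXO1. The shares of all 9919 tested genes with such a shift or such a p were not counted, so these counts have no background here. For RBBP8 (adjusted p = 0.35) the shift was in RBBP8-210, which was at 0 in all SRp55 siRNA libraries and in control libraries 3, 4 and 5, and at 9.28 and 28.3 RPKM in control libraries 1 and 2.

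RAD51AP1 is on the plus strand of chromosome 12, and its annotated transcripts differ in whether they hold an exon of 51 bases, hold an exon of 110 bases and extend exon 3 by 7 bases. The 51-base exon keeps the reading frame, while neither 110 nor 7 is a multiple of 3. The sequences are shown because the transcripts of RAD51AP1 differ at these exons; they are from GENCODE 44 (GRCh38), with the 51-base exon in capitals, the first bases after the joint with exon 3 in capitals, and the 7 added bases in capitals:
51-base exon, chr12:4545782-4545832: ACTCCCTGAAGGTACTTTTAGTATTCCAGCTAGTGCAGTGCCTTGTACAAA
110-base exon, chr12:4546309-4546418: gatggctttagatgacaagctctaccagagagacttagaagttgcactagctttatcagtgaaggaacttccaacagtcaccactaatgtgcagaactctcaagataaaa
Exon 3 joined to the 51-base exon, RAD51AP1-201: aacccctaaaaaaagACTCCCTGAAGGTAC
Exon 3 joined to the 110-base exon, RAD51AP1-202: aacccctaaaaaaagGATGGCTTTAGATGA
Exon 3 joined past the 110-base exon, RAD51AP1-205 and RAD51AP1-208: aacccctaaaaaaagGCATTGAAAAACATG
Exon 3 extended, RAD51AP1-207: aacccctaaaaaaagGTGAGAG
In the shorter form of exon 3 the 7 bases GTGAGAG are the start of the intron.

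**Figure D4:**
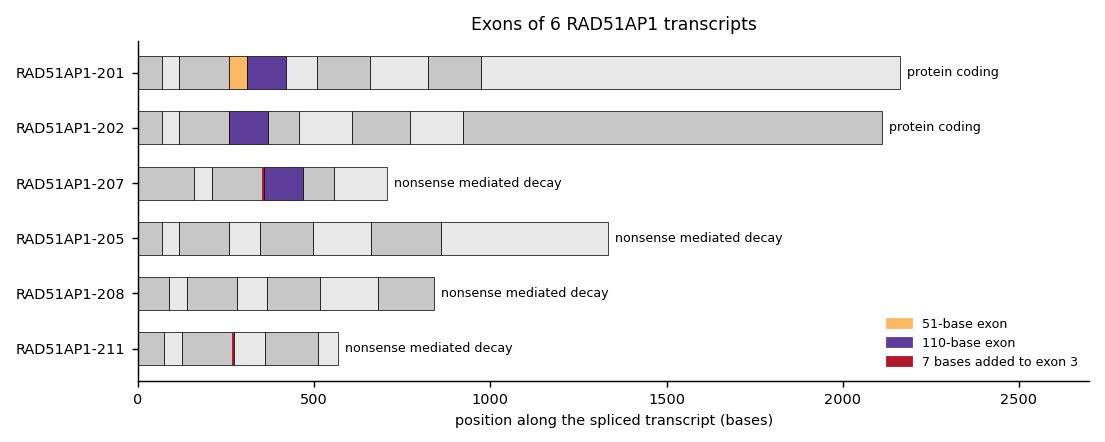
Exons of 6 RAD51AP1 transcripts laid end to end (x axis, bases along the spliced transcript, GENCODE 44), with alternating greys for other exons, the 51-base exon in orange, the 110-base exon in purple and the 7 added bases of exon 3 in red. RAD51AP1-205 (1333 bases) and RAD51AP1-208 (841 bases) both lack the 110-base exon and have exon 3 without the 7 added bases.

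The shift was largest in RAD51AP1-208, a transcript of 841 bases annotated for nonsense-mediated decay. It held 0, 0, 0.119, 2.94 and 0% of RAD51AP1's RPKM in SRp55 siRNA libraries and 14.7, 5.98, 12.3, 21.3 and 10.1% in control libraries. Apart from library 4, the SRp55 siRNA libraries were thus at or near 0, and no control library was. The means were 0.612% ± 1.30 in SRp55 siRNA and 12.9% ± 5.69 in control libraries (SD, n = 5). The exact two-sided permutation test gave p = 0.00794, the smallest it can give, and 0.0278 after adjustment over 7 RAD51AP1 tests. These 7 include the sum of RAD51AP1-208 and RAD51AP1-205 given below. Like all exact permutation tests here, it shuffled the 10 libraries without regard to the replicate pairs. A test within pairs could not give so small a p. RAD51AP1 was singled out by the usage test on the same 10 libraries, and the adjustment does not account for that choice. The exact p-values for RAD51AP1, here and below, thus describe how far the groups separate and are no independent support.

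RAD51AP1-205, of 1333 bases and also annotated for nonsense-mediated decay, went the other way. It held 10.6, 8.85, 7.52, 4.37 and 9.81% in SRp55 siRNA libraries and 1.51, 4.36, 3.13, 1.504 and 3.16% in control libraries (exact permutation p = 0.00794, adjusted 0.0278). The groups did not overlap, though SRp55 siRNA library 4 and control library 2 nearly met. These 2 transcripts share exons 2 to 6, including the joint past the 110-base exon, and differ where the first exon starts and at the 3′ end. Their summed usage was 8.84% ± 1.39 in SRp55 siRNA and 15.6% ± 4.62 in control libraries on RPKM (exact permutation p = 0.0159, adjusted 0.0370), and 8.72% ± 1.90 and 10.7% ± 3.08 on reads (exact permutation p = 0.278; SD, n = 5).

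RAD51AP1-201, a coding transcript with the 51-base exon, was below the usage limit and was not tested. It held 0.730% ± 1.61 of RPKM in SRp55 siRNA and 6.27% ± 5.17 in control libraries. On reads it held 1.10% ± 2.42 and 9.79% ± 7.85, a shift of -8.69 points (SD, n = 5). On RPKM the groups overlapped, with SRp55 siRNA library 5 at 3.60% and control library 2 at 1.26%. The most used transcripts did not show a shift that passed. RAD51AP1-202, the coding transcript that skips the 51-base exon, held 32.3% ± 6.85 in SRp55 siRNA and 34.5% ± 6.02 in control libraries (exact permutation p = 0.571), and RAD51AP1-207, with the extended exon 3, held 26.1% ± 5.94 and 25.4% ± 1.80 (exact permutation p = 0.833; SD, n = 5). Of the 16 transcripts 2 had no exons in GENCODE 44 and stayed out of the exon shares. They held 3.07% in SRp55 siRNA and 1.703% in control libraries. RAD51AP1-214, which does not span the site of these exons, also stayed out. It held 5.60% in SRp55 siRNA and 2.40% in control libraries.

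Summed by exon over the 13 transcripts that span the site, no choice of exon passed. Shares are of the RPKM of these 13 transcripts, not of the whole gene. The 51-base exon was included in 6.39% ± 2.39 in SRp55 siRNA and 8.66% ± 4.76 in control libraries (exact permutation p = 0.421, adjusted over 3 exon choices 0.631). The 110-base exon was skipped in 20.1% ± 3.51 and 20.8% ± 4.28 (exact permutation p = 0.810, adjusted 0.810; SD, n = 5). The difference in its skipping was -0.633 percentage points, SRp55 siRNA minus control siRNA.

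The extended exon 3 came closest. It was in 54.1, 42.3, 44.2, 37.0 and 32.1% of the RPKM of the 13 spanning transcripts in SRp55 siRNA libraries. In control libraries it was in 30.5, 35.8, 30.8, 31.8 and 33.3% (exact permutation p = 0.0238, adjusted 0.0714). SRp55 siRNA library 5 lay within the control range. On reads the shares were 26.0% ± 7.83 in SRp55 siRNA and 18.3% ± 2.51 in control libraries (exact permutation p = 0.0556; SD, n = 5).

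**Figure D5:**
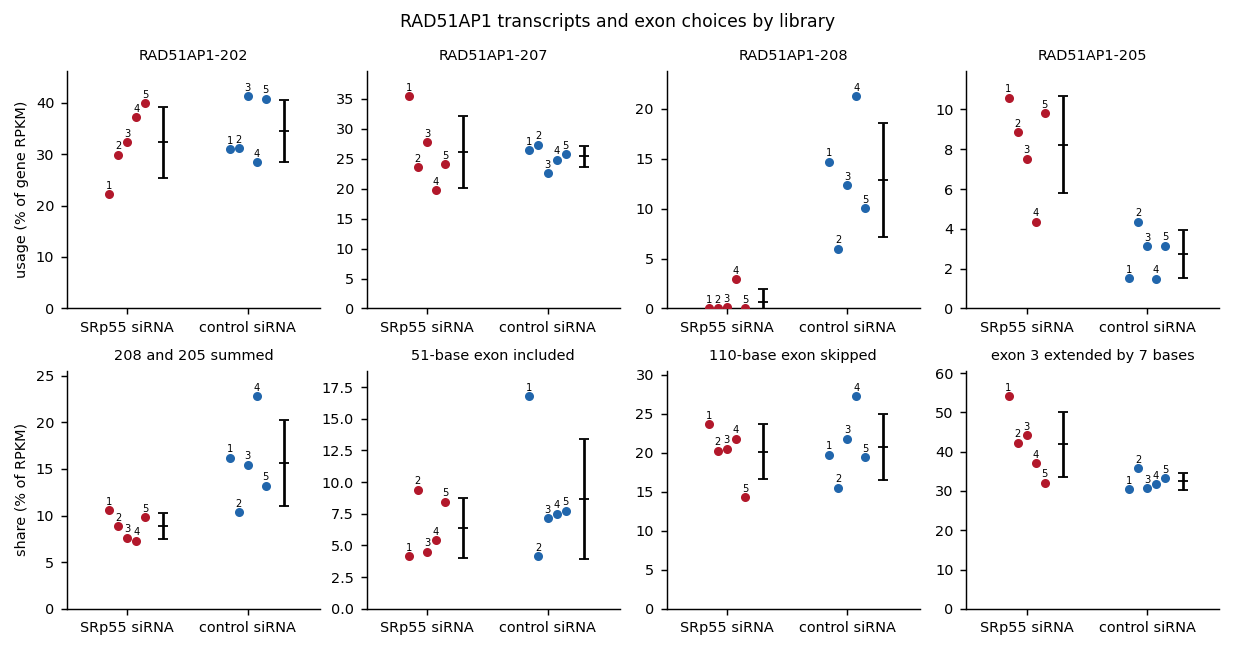
Share of RAD51AP1 RPKM (y axis, percent) held by 4 transcripts and by RAD51AP1-208 and RAD51AP1-205 together, in SRp55 siRNA libraries (red, left) and control siRNA libraries (blue, right). For each of 3 exon choices the share is of the RPKM of the 13 transcripts that span the site. Points are libraries numbered by replicate, bars show mean and SD (n = 5). RAD51AP1-208 is at 0 to 2.94% in SRp55 siRNA and 5.98 to 21.3% in control libraries, while RAD51AP1-205 lies higher in SRp55 siRNA.

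Some values carry reads that the counting could have shared. A gene overlaps FANCA (ZNF276), FANCF (GAS2), FANCL (VRK2), FANCI (POLG), MSH6 (FBXO11), NBN (DECR1), XRCC3 (KLC1), RAD54L (LRRC41), ATM (NPAT) and CHEK2 (HSCB) on the opposite strand, and whether counting used strand is not given in the sources used here. XRCC4, at 4.41 RPKM over all libraries, overlaps TMEM167A at 84.7 RPKM, and CHEK1 overlaps STT3A at 91.9 RPKM on the same strand. PMS2 and CHEK2 have near-identical pseudogene copies in the genome, so their values are uncertain.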

How the data were processed

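The deposited tables list 155130 transcripts per library, each with estimated reads, length and RPKM in a single text field (unit "other" in the unit table), made by the authors on GRCh37/hg19 with TopHat, per the submitters' processing notes. For the quantifier, annotation release and strand setting: not given in the sources used here. The members and gene lists were chosen with earlier results of these data known. Gene values are sums over transcripts; names, biotypes and RAD51AP1 exons are from GENCODE 44 by Ensembl ID. Genes averaging 0.5 RPKM or more were tested with limma 3.58.1 (R 4.3.3; trend and robust options) on log2(RPKM + 0.5), which understates changes of low genes, with p-values for the change as deposited and fold changes printed relative to the median gene, and usage with diffSplice (transcripts of at least 0.5 RPKM and 5% usage). As reads are fractional and inside a text field, no count model was run. Same-numbered libraries deviated together (correlations of 0.128 to 0.414, against -0.174 to 0.121 for other pairs), so the numbers were taken as pairs. Named genes were those called, RAD51AP1, BRCA1, BRCA2, FANCD2, CHEK1, CHEK2, ATM, ATR, PRKDC and PARP1, and up to 6 called genes of each other list, of which 1 is not reported here. The fits were tested on simulated data.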

Additional observations from a re-analysis of the deposited data

Results flagged for a closer look

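In 13 of 94 groups of 5 values examined, one library lay farther from the others than Dixon's 95% limit of 0.71 for the gap over the range; chance alone marks about 1 in 20 groups. Control library 4 was the high one for 5 genes: RAD51C at 33.2 RPKM (other controls 23.4 to 25.4), FANCA at 108.8 RPKM (26.7 to 41.3), FANCE at 11.1 RPKM (8.95 to 9.55), FANCL at 55.6 RPKM (35.8 to 39.4) and CHEK2 at 22.1 RPKM (10.5 to 11.5). Control library 2 was high for BRIP1, at 12.1 RPKM. Control library 1 was high for the inclusion of the 51-base exon of RAD51AP1, at 16.8%.

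SRp55 siRNA library 2 was high for RAD51D, at 21.2 RPKM, and for LIG3, at 10.3 RPKM. SRp55 siRNA library 1 was high for PMS2, at 4.23 RPKM, and SRp55 siRNA library 3 for EXO1, at 17.4 RPKM. SRp55 siRNA library 5 was low for XRCC5, at 223 RPKM, where the other libraries of its group had 296 to 325 RPKM. SRp55 siRNA library 4 alone held RAD51AP1-208 above trace level, at 2.94% of the gene's RPKM.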

How the results depend on the processing

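On RPKM sums 684 genes changed in all, against 2340 on summed reads, 1784 with the replicate block, 1225 over transcripts of at least 1000 bases, 4953 on reads with the replicate block and 259 to 1085 when 1 library was left out. Of the 42 repair and checkpoint genes, 4 changed on RPKM, against 17 on reads, 2 over protein-coding transcripts, 10 with the replicate block, 11 over transcripts of at least 1000 bases and 28 on reads with the replicate block. Leaving out 1 library gave 2 to 11 on RPKM and 14 to 20 on reads (16 without control library 5). Of the other repair genes 8 changed, against 5 with median-of-ratios scaling, 24 on reads, 5 over protein-coding transcripts, 4 with no filter on low values, 18 with the replicate block and 2 to 15 with 1 library left out. Of the proliferation genes 14 changed, against 30 with the replicate block and 3 to 23 with 1 library left out. For usage 34 genes were called, against 20 with transcripts of at least 1 RPKM and 10% usage and 20 to 46 with 1 library left out. RAD51AP1 was called whichever 1 library was left out (shift -13.98 to -10.16 points), but not on reads, where the shift of -7.63 missed the size limit though its adjusted p was under 0.05, nor with at least 1 RPKM and 10% usage, where RAD51AP1-208 was not tested and the largest shift was -2.21; then 0 of the 42 genes were called. Among the alternative results for single genes, 64 passed that had not, 17 no longer passed and none that passed on RPKM changed sign. In 14 genes 35 results changed sign where neither the main fit nor that alternative passed. Except where named, the causes were not tested. The alternatives with at least 1000 bases, with reads and block together, with reads and 1 library left out, and the exon shares were chosen after seeing the data. Depth limits the low transcripts: counting error of estimated reads is not given.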
